A study of Rattus norvegicus with 26 samples.

Results

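Uridine phosphorylase 1 (*Upp1*) and 9 other enzymes of pyrimidine nucleotide metabolism were followed while rat multipotent adult progenitor cells (rMAPCs) were differentiated towards smooth muscle cells (SMCs). The members were the gene probes named *Upp1*, *Upp2*, *Uck1*, *Uck2*, *Umps*, *Cda*, *Dck*, *Tk1*, *Tyms* and *Dhodh*, 10 of the 35287 gene names on the array, each read from its brightest probe. *Uck2* had 2 probes and every other member had 1. *Upp1* was chosen by its log2 levels over the days on these same arrays and the others by their place in the pathway, so that the values of *Upp1* over time are a description and carry no test. *Upp2* stood well above background on 1 array of the 26 and *Dck* on 3, and neither was so on every array of any group. The other 8 members were tested or, for *Upp1*, described.

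RNA of the clones Cl19 and 3c3, which are *Oct4* expressing rMAPC lines from female Fischer rats, was hybridized on d0, d2, d4 and d6 of culture with TGF-β and PDGF-bb, in triplicate for each line and day. The labels give bone marrow as the source of both and an age of 3 weeks for Cl19 and of embryonic day 18 for 3c3. Each line is 1 clone, so that a difference between the lines is a difference between 2 clones. The study's supporting methods call the 3 arrays of a line and day biological replicates. RNA of primary SMCs was hybridized on 2 arrays. Accounts of its source differ, since the labels describe aortic RNA, the study's methods name commercial RNA of primary smooth muscle cells, and a legend names cultured aortic SMCs sampled in duplicate, so that it may hold other cells of the vessel wall. Whether its 2 arrays are separate preparations is not clear from these, and the spread between them may be technical. The p-values that involve them use a spread pooled over all groups, which comes mostly from the rMAPC arrays. They do not measure how preparations of primary SMCs vary.

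Pyrimidine nucleotides reach a cell along a pair of routes. In the de novo route DHODH oxidises dihydroorotate to orotate in the mitochondrion and UMPS turns orotate into UMP. In the salvage route the uridine-cytidine kinases UCK1 and UCK2 phosphorylate nucleosides taken up from outside, thymidine kinase 1 (TK1) and deoxycytidine kinase (DCK) do so for deoxynucleosides, and cytidine deaminase (CDA) turns cytidine into uridine. Uridine phosphorylases (UPP1 and UPP2) split uridine into uracil and ribose 1-phosphate. Thymidylate synthase (TYMS) makes dTMP from dUMP, and it and TK1 are known to be made mainly by cells that replicate their DNA.

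The probes that the results turn on are shown because each reads only 60 bases of its transcript. Each sequence is given from 5′ to 3′ as listed in the scanner files, in lower case throughout since the whole probe takes part in the measurement, and each of the probes shown has at least 1 forward reading frame without a stop codon. The probes of *Cda* and *Uck2* are not shown.
Upp1: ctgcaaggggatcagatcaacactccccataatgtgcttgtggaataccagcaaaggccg
Uck1: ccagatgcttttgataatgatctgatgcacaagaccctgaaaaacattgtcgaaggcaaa
Umps: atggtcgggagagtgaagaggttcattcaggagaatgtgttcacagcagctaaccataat
Dhodh: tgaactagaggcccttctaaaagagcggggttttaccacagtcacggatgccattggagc
Tk1: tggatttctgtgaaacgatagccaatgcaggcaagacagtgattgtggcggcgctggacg
Tyms: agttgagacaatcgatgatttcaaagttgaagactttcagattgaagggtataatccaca

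The array's annotation places these probes on the rat assembly rn4. The *Upp1* probe lies on the forward strand at chr14:89669457-89669516 and the *Umps* probe on the forward strand at chr11:68625304-68625363. The other probes shown lie on the reverse strand. The *Uck1* probe stretches over 989 bases at chr3:11371012-11372000 and the *Dhodh* probe over 523 bases at chr19:39463420-39463942, more than their 60 bases, so that each of them crosses an intron in this annotation. The *Tyms* probe lies at chr9:112605733-112605792. The *Tk1* probe is placed at chr3:109023260-109023319, whereas RefSeq places the start of the *Tk1* gene on chromosome 10 of the newer assembly GRCr8. Which of these copies the probe reads was not tested, since no rn4 genome was used here, and *Tk1* values hold for the probe that carries this name.

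Levels below are log2 intensities after quantile normalization of all arrays, and a level of 1 gene's probe cannot be set against that of another. Changes were tested with limma in 1 fit over 26 arrays and 9 groups on the 24442 probes that passed the background call throughout at least 1 of the groups, with Benjamini-Hochberg (BH) adjustment over all of them and a threshold of 0.05, and a change is given with its standard error (SE). Over all tested probes the median change from d0 to d6 lay at -0.20 for Cl19 and at -0.21 for 3c3, so that a member that followed the bulk of the probes would have a value near these. In the deposited values, which are not normalized between arrays, the same medians were 0.10 and 0.09, and the share of higher among all called probes was 55.7% and 56.4% in place of 42.1% and 40.7%. The 4 days of a replicate shared a slide and took the same 4 positions on it in both lines, so that day and position cannot be told apart. Cl19, 3c3 and the primary SMCs each had a scan day of their own, and a difference in level between them cannot be told apart from the scan day. Between 43.2% and 61.4% of the gene features were well above background on an array, and the arrays of 3c3 replicate 3 had the highest background. The array labelled Cl19 d2 replicate 1 correlated with the 3c3 arrays of d2 at 0.989 to 0.994 and with the other Cl19 arrays of d2 at 0.967 and 0.970, across the tested probes. It was kept under its label, and results that rest on Cl19 d2 are also given without it.

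The labelled cell types were checked by their markers. All 6 smooth muscle markers tested were higher on d6 than on d0 past the threshold in both lines, and *Myh11* had no probe under this name. Of 5 rMAPC markers, 5 were lower in Cl19 and 4 in 3c3. Epithelial markers also moved with the days. All 4 of *Cdh1*, *Epcam*, *Krt8* and *Krt19* were higher on d6 in both lines, the log2 of their summed level lay between 13.05 and 13.67 on d0 and between 15.86 and 16.47 on d6, and it was 7.50 and 7.59 in primary SMCs, where 3 of the 4 were well above background on neither array. Of 4 fibroblast markers *Col1a1* rose and *Pdgfra* fell in both lines, while *Dcn* and *Lum* were well above background on all 3 Cl19 arrays of d6 and on none of 3c3. The log2 of the summed fibroblast level was 13.23 to 13.90 on d6 in Cl19, 10.59 to 11.73 in 3c3 and 16 to 16.07 in primary SMCs. Of 3 blood markers *Cd68* and *Cd14* were well above background on every rMAPC array and *Ptprc* on 1 of d6, and only *Cd14* in Cl19 passed the test, at -0.87. The log2 of the summed blood marker level lay between 7.08 and 8.06 in rMAPCs and at 9.73 and 9.78 in primary SMCs. Of 4 endothelial markers *Pecam1* was lower on d6 in both lines and *Tek* in Cl19, and *Cdh5* and *Vwf* passed in neither. Their summed log2 level lay between 6.83 and 7.98 on d0, between 5.59 and 7 on d6, and between 4.61 and 5.20 in primary SMCs. The part of these other cell types in the results below was not tested.

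*Upp1* was bright on d0 and dim on d6 in both lines. In Cl19 the 3 arrays read 14.54, 14.65 and 14.68 on d0, followed by 11.82, 10.58 and 11.46 on d2, 8.65, 7.52 and 7.35 on d4, and 6.60, 7.97 and 7.47 on d6. No array of a later day reached the lowest array of d0, and the arrays of d4 and d6 overlapped. In 3c3 the arrays read 13.19, 13.43 and 13.31 on d0, 11.44, 11.73 and 11.46 on d2, 11.77, 11.47 and 11.35 on d4, and 9.54, 8.64 and 9.44 on d6. Here the level stood still between d2 and d4 and dropped again by d6.

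The mean of *Upp1* fell by 7.28 log2 units from d0 to d6 in Cl19, a 155-fold lower intensity, whereas in 3c3 it fell by 4.10 units, a 17.2-fold lower intensity. In these bulk samples fewer cells that express a gene and less RNA of it per cell cannot be told apart. In Cl19 the drop lay in the first 4 days, with -3.34 from d0 to d2 and -3.45 from d2 to d4 against -0.49 from d4 to d6. Without the array labelled Cl19 d2 replicate 1 the first 2 of these steps were -3.60 and -3.18. In 3c3 the steps were -1.77, -0.01 and -2.32. The lines were apart on d0 already, at 14.63 ± 0.07 in Cl19 and 13.31 ± 0.12 in 3c3 (SD, n = 3), and they lay in the opposite order on d6, at 7.35 ± 0.69 and 9.21 ± 0.49. Primary SMCs stood at 11.34 and 11.35, above every d6 array of either line and below every d0 array. From the highest to the lowest the levels of *Upp1* were Cl19 d0, 3c3 d0, 3c3 d2, 3c3 d4, primary SMCs, Cl19 d2, 3c3 d6, Cl19 d4 and Cl19 d6. The 3 neighbours 3c3 d2, 3c3 d4 and primary SMCs lay closer to each other than the SD of the 3c3 d4 arrays, Cl19 d2 lay within its own SD of them, and Cl19 d4 and Cl19 d6 were closer than their SDs.

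*Cda* ran the opposite way, from not detected to detected. In Cl19 its probe was well above background on no array of d0, where it read 1.45, 0.56 and 0.54, and on all arrays of the later days, at 4.42, 2.43 and 2.91 on d2, 5.05, 5.0 and 5.96 on d4, and 6.03, 5.63 and 4.75 on d6. In 3c3 no array of d0 or d2 had it well above background, and it was so on all 3 of d4 at 3.64, 5.02 and 5.16, and on 2 of 3 on d6 at 4.27, 3.93 and 4.16. By this call *Cda* was detected by d2 in Cl19 and by d4 in 3c3. The 3c3 arrays of d2 read 1.93, 2.44 and 2.45, near the 2.43 that counted as detected in Cl19. The dimmest signal that counted was 2.01 on that Cl19 array and 2.35 to 2.85 on the 3c3 arrays of d2. A difference in timing between the lines thus cannot be told apart from the background of the arrays. Since *Cda* passed the filter only through the groups in which it was bright, some change was built into its being tested, and its p-values and calls are no independent support for one.

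**Figure D1:**
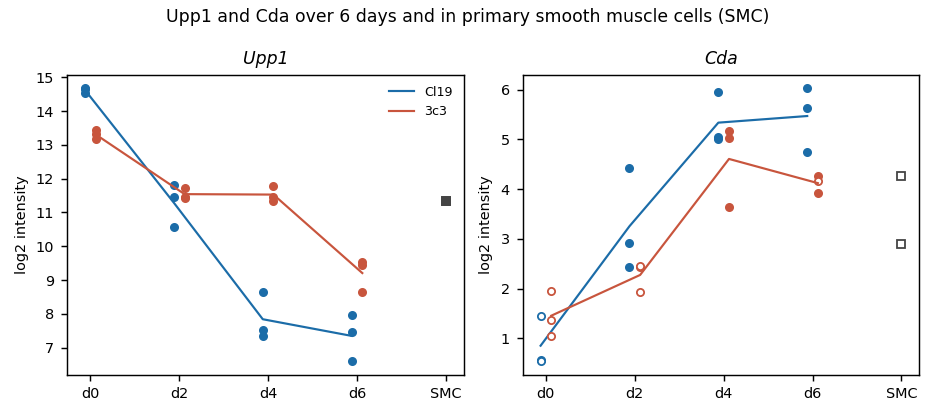
Log2 intensity of *Upp1* and *Cda* on d0, d2, d4 and d6 in Cl19 (blue) and 3c3 (red) and in primary SMCs (grey squares, SMC). Each point is 1 array, lines join the means of 3 arrays, and open symbols mark arrays on which the probe was not well above background. *Upp1* went down from 14.63 to 7.35 in Cl19 and from 13.31 to 9.21 in 3c3, whereas *Cda* was open on d0 in both lines and mostly filled on d4 and d6.

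Because the d0 arrays give only a ceiling, the rise of *Cda* is a bound. The bound sets the mean of the bright group against, for each dim array, the dimmest signal that still counted as well above background there, or the probe's own value where that is higher. On d6 *Cda* was at least 8.53-fold higher than on d0 in Cl19 (BH-adjusted p = 2.8e-07). In 3c3 the same reckoning gave 2.73-fold (BH-adjusted p = 2.3e-04). That value is no strict bound, since the d6 mean includes the 4.16 of an array that was not well above background. In both lines the d6 arrays did not overlap with those of d0. With no filter on dim probes the BH-adjusted p was 6.5e-07 in Cl19 and 4.4e-04 in 3c3. These fold values hold for the scanner's own background subtraction. Under normexp, whose offset of 50 shrinks changes of dim probes, the fitted rise was 0.71 log2 units in Cl19 (BH-adjusted p = 5.0e-05) and 0.23 in 3c3 (BH-adjusted p = 0.13). By d2 *Cda* was at least 1.83-fold higher in Cl19 (BH-adjusted p = 0.0016; 0.0098 without the array labelled Cl19 d2 replicate 1). The step from d2 to d4 was at least 4.05-fold in 3c3 (BH-adjusted p = 0.0077) and 2.08 log2 units in Cl19 (SE 0.50, BH-adjusted p = 0.0064; 2.66 and 0.0016 without that array). In 3c3 leaving out the whole slide of replicate 3 left that step short of the threshold. The fitted rise was larger in Cl19 by 1.96 log2 units (SE 0.71), which was not past the threshold (BH-adjusted p = 0.067). It passed in 2 other scalings, at 0.032 with the 75th percentile and 0.024 with the deposited values, and when any of 4 single arrays was left out. On primary SMC arrays *Cda* read 2.90 and 4.27 and was well above background on neither, at least 2.53-fold lower than on d6 in Cl19 (BH-adjusted p = 0.0056).

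The second uridine phosphorylase gave no such course. *Upp2* was well above background on no rMAPC array, where it read 1.5 at most, and on 1 of the 2 primary SMC arrays, at 4.36 against 3.72 on the other. *Dck*, the kinase of deoxycytidine, was well above background only on the replicate 2 arrays of d2, d4 and d6 in Cl19, at 2.50, 2.38 and 1.96. Neither level could be compared between days at this signal over background.

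Of the uridine-cytidine kinases, *Uck1* was lower on d6 in both lines and *Uck2* gave no shared direction. *Uck1* read 8.42, 8.45 and 8.37 on d0 and 7.87, 7.67 and 7.99 on d6 in Cl19. In 3c3 it read 8.63 on all 3 arrays of d0 and 8.36, 8.05 and 7.85 on d6. The groups did not overlap in either line. The change was -0.57 in Cl19 (SE 0.16, BH-adjusted p = 0.0044) and -0.54 in 3c3 (BH-adjusted p = 0.0069). It lay between d2 and d4, at -0.58 in Cl19 (BH-adjusted p = 0.013, and 0.049 without the array labelled Cl19 d2 replicate 1) and -0.55 in 3c3 (BH-adjusted p = 0.033), with steps of 0.08 or less in size before and after. This fall was small against the median of all probes, at -0.37 and -0.34 relative to it. In the deposited values *Uck1* changed by -0.27 and -0.24, short of the threshold (BH-adjusted p = 0.26 and 0.33). Without the slide of 3c3 replicate 3 its adjusted p in 3c3 was 0.11.

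*Uck2* read 12.77, 12.80 and 12.87 on d0 and 12.78, 12.53 and 13.22 on d6 in Cl19, a change of 0.03 (SE 0.29, BH-adjusted p = 0.94). In 3c3 it read 13.00, 12.69 and 12.74 on d0 and 12.81, 11.31 and 12.01 on d6. Those groups overlapped, and the change of -0.77 was past the threshold (SE 0.29, BH-adjusted p = 0.033). The call in 3c3 rested on single arrays, since leaving out d6 replicate 2, which held the 11.31, gave -0.40 (BH-adjusted p = 0.24), and leaving out d0 replicate 1 or 3 or d6 replicate 3 also ended it. The dimmer *Uck2* probe had means of 10.54 and 10.80 on d0 and d6 in Cl19 and of 10.53 and 9.86 in 3c3, and it too spread widely on d6 in 3c3, from 9.02 to 10.53.

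The de novo enzymes were read by *Umps* and *Dhodh*. *Umps* fell in both lines to about the same extent. In Cl19 it read 11.00, 10.76 and 10.95 on d0 and 9.88, 9.34 and 10.33 on d6, and in 3c3 it read 10.95, 10.96 and 11.06 on d0 and 10.21, 9.27 and 10.20 on d6. All d6 arrays lay below all d0 arrays. The change was -1.05 in Cl19 (BH-adjusted p = 7.2e-04) and -1.10 in 3c3 (BH-adjusted p = 6.3e-04), with a SE of 0.23 in each, about 2.08-fold and 2.14-fold lower. The means went down from day to day, with steps of -0.03, -0.34 and -0.68 for Cl19 and of -0.22, -0.25 and -0.63 for 3c3, none of which passed the threshold. Without the array labelled Cl19 d2 replicate 1 the first Cl19 steps were -0.06 and -0.31. With the replicate number, which is the slide, as a block, the last step passed it in both lines (BH-adjusted p = 0.030 and 0.034).

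*Dhodh* had its lowest mean on d6 in both lines and its highest on d4 in 3c3. In 3c3 it read 11.59, 11.76 and 11.57 on d0, 12.28, 12.15 and 12.14 on d4, and 11.29, 10.48 and 11.09 on d6. Every d4 array lay above every array of d0 and d6. The step from d4 to d6 was -1.23 (SE 0.22, BH-adjusted p = 0.0015), and the change from d0 to d6 was -0.68 (BH-adjusted p = 0.013), which leaving out d6 replicate 2 turned to -0.45 (BH-adjusted p = 0.10). The rise from d2 to d4 was 0.65 (BH-adjusted p = 0.066, and 0.045 with the replicate block). In Cl19 the arrays read 11.70, 11.70 and 11.76 on d0, 11.86, 12.18 and 11.86 on d4, and 11.21, 10.81 and 11.82 on d6. The Cl19 step from d2 to d4 was 0.09 (BH-adjusted p = 0.86), and -0.02 without the array labelled Cl19 d2 replicate 1. A peak on d4 is thus not clear in this line. There the arrays of d0 and d6 overlapped, and neither the change of -0.44 from d0 to d6 (BH-adjusted p = 0.096) nor the last step of -0.69 (BH-adjusted p = 0.062, and 0.046 with the replicate block) passed the threshold. The change from d0 to d6 in Cl19 did so without d6 replicate 3, at -0.71 (BH-adjusted p = 0.0068), and with 75th percentile scaling, at -0.77 (BH-adjusted p = 0.006).

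**Figure D2:**
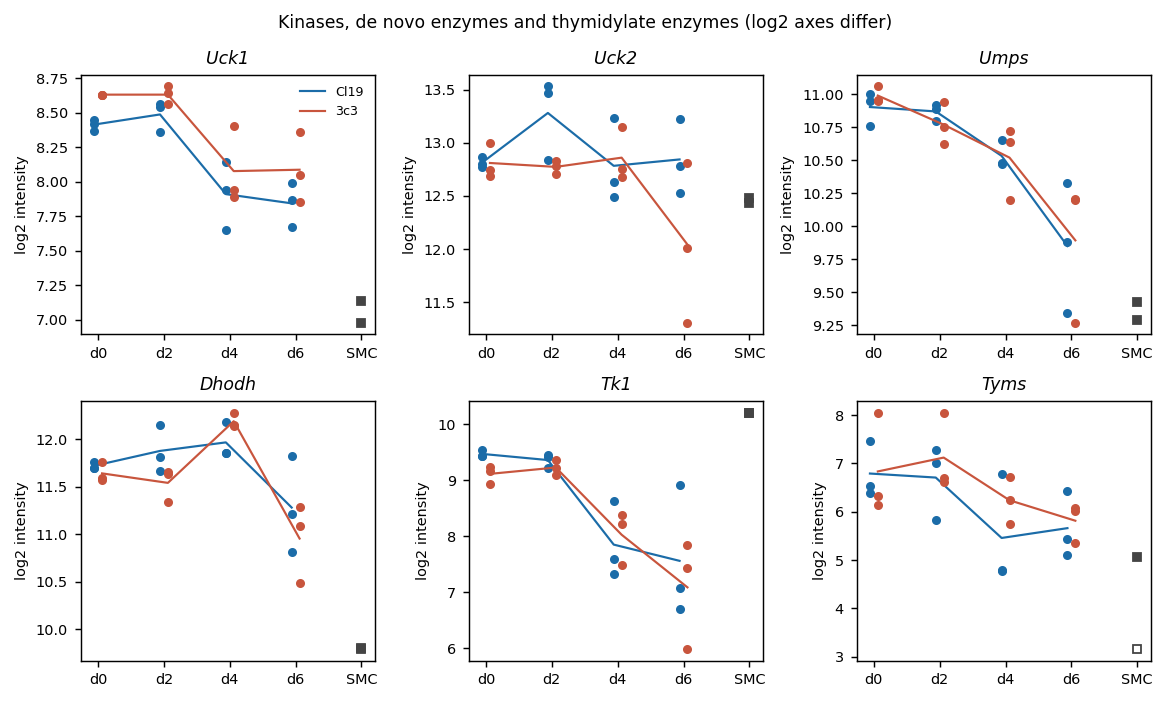
Log2 intensity of *Uck1*, *Uck2*, *Umps*, *Dhodh*, *Tk1* and *Tyms* on d0, d2, d4 and d6 in Cl19 (blue) and 3c3 (red) and in primary SMCs (grey squares, SMC), with 1 point per array, lines through the means of 3 arrays, and an open symbol where the probe was not well above background. The axes differ between panels. *Umps* and *Tk1* ended lower on d6 in both lines, and *Dhodh* peaked on d4 in 3c3 before its drop. *Tk1* was at 10.20 and 10.21 in primary SMCs, above all rMAPC arrays.

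*Tk1* fell further than the other members apart from *Upp1*. In Cl19 it read 9.43, 9.44 and 9.55 on d0, 9.22, 9.46 and 9.41 on d2, 7.33, 8.63 and 7.60 on d4, and 7.08, 6.70 and 8.91 on d6. In 3c3 the arrays read 8.94, 9.24 and 9.17 on d0, 9.36, 9.23 and 9.10 on d2, 8.38, 7.49 and 8.22 on d4, and 7.85, 5.99 and 7.43 on d6. In each line the arrays of d0 and d2 overlapped, and all arrays of d4 and d6 lay below them. Between d0 and d6 *Tk1* changed by -1.91 in Cl19 (SE 0.47, BH-adjusted p = 0.0019) and -2.03 in 3c3 (BH-adjusted p = 0.0014), that is to 3.76-fold and 4.09-fold lower intensities. The step from d2 to d4 was -1.51 in Cl19 (BH-adjusted p = 0.028, and 0.064 without the array labelled Cl19 d2 replicate 1) and -1.20 in 3c3 (BH-adjusted p = 0.12). The replicates spread far more on d6, with an SD of 1.18 in Cl19 and 0.97 in 3c3, than on d0, with 0.07 and 0.16.

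*Tyms* lay lower on d6 without passing the test. It read 6.53, 7.46 and 6.38 on d0 and 5.11, 6.43 and 5.44 on d6 in Cl19, and 6.14, 8.04 and 6.32 on d0 and 6.01, 6.07 and 5.36 on d6 in 3c3. Replicate 2 was the highest array on every day in both lines. The change was -1.13 in Cl19 (SE 0.64, BH-adjusted p = 0.15) and -1.02 in 3c3 (BH-adjusted p = 0.20). With the replicate block, which takes out the level of each slide, the change in Cl19 passed the threshold (SE 0.43, BH-adjusted p = 0.031) and that in 3c3 did not (BH-adjusted p = 0.051). The step of -1.25 from d2 to d4 in Cl19 passed it in the same fit (BH-adjusted p = 0.036). In the fit without the block that step was not past the threshold, also when the array labelled Cl19 d2 replicate 1 was left out (-1.10, BH-adjusted p = 0.39).

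**Figure D3:**
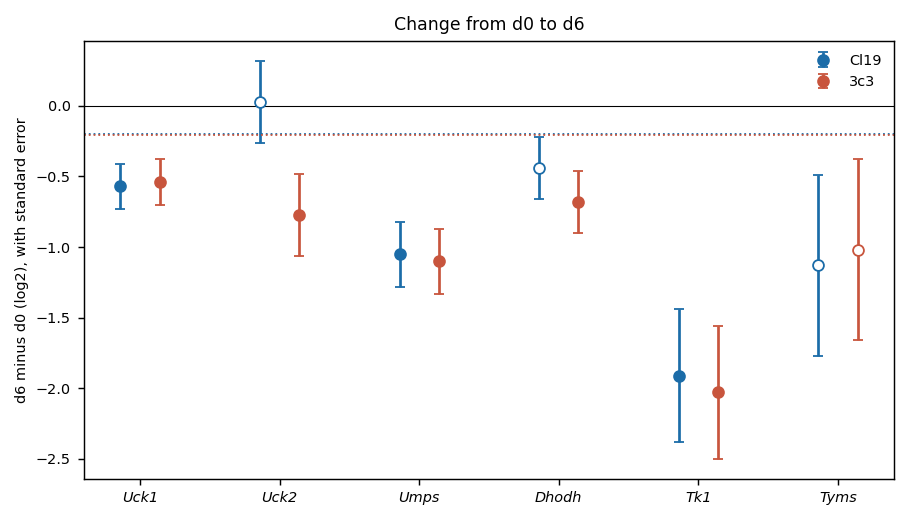
Change from d0 to d6 (log2, limma) of 6 members in Cl19 (blue) and 3c3 (red), with bars of 1 standard error (SE). Filled points passed an adjusted p of 0.05, and the dotted lines at -0.20 and -0.21 are the medians of all tested probes. *Tk1* had the lowest values, -1.91 and -2.03, and *Uck2* lay at 0.03 in Cl19 and -0.77 in 3c3.

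Of the 7 tested members other than *Upp1*, 5 changed over time in Cl19 and 5 in 3c3 by limma's F-test, and they were *Uck1*, *Umps*, *Cda*, *Tk1* and *Dhodh* in both. Among all tested probes 54.3% changed in Cl19 and 50% in 3c3. From d0 to d6 in Cl19, 3 of the 7 were lower, against 30.3% of all probes, and 1 was higher, against 22%. In 3c3, 5 were lower, against 28.6% of all probes, and 1 was higher, against 19.7%. The median change of the 7 was -0.57 in Cl19 and -0.77 in 3c3, beside -0.20 and -0.21 over all probes. *Cda* is among these 7 although it could pass the filter only through groups in which it was bright. Without it 4 of 6 changed over time in each line, and 3 and 5 of 6 were lower on d6 with none higher, at medians of -0.81 and -0.89.

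The steps place these calls in the course. In Cl19, 1 of the 7 passed from d0 to d2, against 22.6% of all probes in either direction, 3 from d2 to d4, against 20.6%, and none from d4 to d6, against 6.95%. In 3c3 none passed from d0 to d2, against 19.1%, 2 from d2 to d4, against 8.71%, and 1 from d4 to d6, against 10.5%. With so few members these counts say little about the members as a group. None of the 7 differed between the lines in its change from d0 to d6, against 17.4% of all probes, and none differed between the lines on d0, against 3.07%. For *Umps* the difference in change was 0.04 with a SE of 0.33, and for *Tk1* it was 0.12 with a SE of 0.66, so that the spread of *Tk1* leaves wide room for a difference between the lines. The study's own area method, which compares the area between a probe's course and its d0 level with noise profiles, took 6.2% of all probes in Cl19 and 2.44% in 3c3. *Upp1* and *Cda* were among them in Cl19 and no member was in 3c3, and nothing is read from this, since *Upp1* was chosen on the same arrays and *Cda* passed the filter through the groups in which it was bright.

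The spread of *Tk1*, *Umps*, *Uck2* and *Dhodh* on d6 followed the order of arrays in proliferation markers in both lines. That of the other members did so only in part or not. The mean log2 level of 16 such markers went from 11.84, 11.91 and 11.84 on d0 to 10.09, 9.64 and 11.10 on d6 in Cl19, and from 11.82, 11.90 and 11.84 to 10.72, 10.01 and 10.51 in 3c3. The Cl19 array of d6 with the highest marker mean, replicate 3, was also the highest of its group in *Tk1*, *Umps*, *Uck1*, *Uck2* and *Dhodh*, and the 3c3 array with the lowest marker mean, replicate 2, was the lowest of its group in *Tk1*, *Umps*, *Uck2*, *Dhodh*, *Cda* and *Upp1*. The reverse was seen for *Tyms*, which was highest in both lines on replicate 2, the array with the lowest marker mean, and for *Upp1* in Cl19, at 7.97 on that array. Over the 24 rMAPC arrays, which share days and slides, Pearson's r with the marker mean was 0.95 for *Umps*, 0.93 for *Tk1*, 0.80 for *Uck1*, 0.78 for *Upp1*, 0.61 for *Dhodh*, 0.54 for *Uck2*, 0.51 for *Tyms* and -0.76 for *Cda*. Of the 16 markers 14 were lower on d6 in each line, at medians of -1.65 for Cl19 and -1.55 for 3c3, and the largest falls by the mean of both lines were those of *Ccna2* (-2.74 and -2.18), *Ccne1* (-1.63 and -2.57) and *Aurkb* (-2.21 and -1.68), which drive or carry out cell division. The part of proliferation in the members' changes was not tested.

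**Figure D4:**
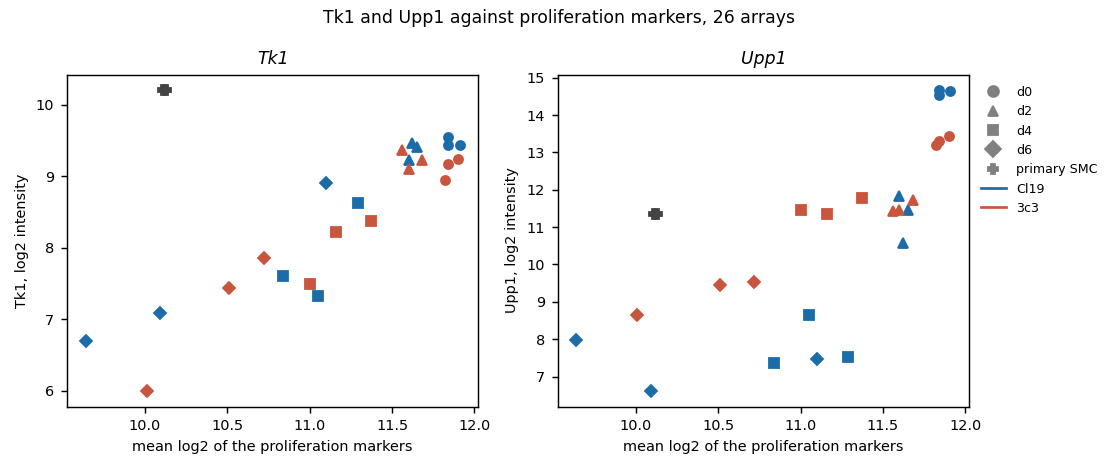
Log2 intensity of *Tk1* (left) and *Upp1* (right) against the mean log2 level of 16 proliferation markers on all 26 arrays, in Cl19 (blue), 3c3 (red) and primary SMCs (grey), with the day given by the symbol. *Tk1* lay along 1 band in both lines while the 2 primary SMC arrays stood above it at 10.20 and 10.21, and *Upp1* lay lower in Cl19 than in 3c3 on d4 and d6 at a like marker mean.

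Primary SMC arrays differed from d6 of both lines past the threshold in *Tk1*, *Dhodh* and *Uck1* among the 7 tested members other than *Upp1*. *Tk1* was at 10.20 and 10.21, higher than on d6 by 2.64 log2 units in Cl19 (BH-adjusted p = 1.7e-04) and by 3.12 in 3c3 (BH-adjusted p = 2.7e-05). The mean of the proliferation markers on these arrays was 10.11 and 10.13, and the part of proliferation in this difference was not tested. *Dhodh* was at 9.79 and 9.80, below every rMAPC array, with -1.48 against Cl19 (BH-adjusted p = 1.8e-05) and -1.16 against 3c3 (BH-adjusted p = 2.7e-04). *Uck1* was at 7.14 and 6.98, with -0.78 (BH-adjusted p = 5.0e-04) and -1.03 (BH-adjusted p = 2.8e-05). *Umps*, at 9.29 and 9.43, and *Uck2*, at 12.48 and 12.43, did not pass the threshold in either comparison. *Tyms* read 3.16 and 5.06, and the array at 3.16 was not well above background. The difference of *Tyms* passed against 3c3 alone (-1.70, BH-adjusted p = 0.039, and 0.059 against Cl19). This call, counted among the lower members against 3c3, rests in part on an undetected value. In all, 3 of the 7 members were lower and 1 higher than on d6 in each line, where among all probes 38.6% were lower and 32.8% higher against Cl19 and 38.1% and 33.4% against 3c3. In the deposited values, in which the median difference of primary SMCs from d6 was -2.17 and -2.09 log2 units, *Tk1* was 0.27 and 0.81 higher and not past the threshold, and relative to that median it was 2.43 and 2.90 higher.

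Other genes on the way to UTP and CTP moved both ways. Their list is named nucleotide synthesis beyond UMP, although *Cad* in it acts before UMP and *Uckl1* is a relative of the uridine-cytidine kinases. Of its 12 genes 11 had a probe under their name, and all 11 were tested. In Cl19 4 were higher and 4 lower on d6, beside 22% and 30.3% of all probes. In 3c3 3 were higher and 5 lower, beside 19.7% and 28.6%. The median change was -0.37 and -0.40, beside -0.20 and -0.21 over all probes. *Cad*, the enzyme of the first steps of the de novo route, fell by 1.41 in Cl19 (BH-adjusted p = 9.5e-06) and by 1.35 in 3c3 (BH-adjusted p = 2.3e-05). *Ctps1*, which makes CTP from UTP, fell by 1.19 and 1.57, and *Cmpk1*, the kinase of UMP and CMP, fell by 1.41 and 0.92. Unlike *Umps* and *Tk1*, *Cad* had its drop by d2, from 13.09 to 12.05 in Cl19 (11.95 without the array labelled Cl19 d2 replicate 1) and from 12.98 to 12.06 in 3c3. *Uckl1*, a relative of the uridine-cytidine kinases, rose by 2.00 in Cl19 (BH-adjusted p = 1.5e-07) and by 1.46 in 3c3 (BH-adjusted p = 1.2e-05), the opposite of *Uck1*. *Nme7*, of the nucleoside diphosphate kinase family, rose by 2.28 and 1.60. The mitochondrial kinase *Cmpk2* rose by 2.46 in Cl19. Its fitted rise in 3c3 was 0.95 (BH-adjusted p = 0.046), from d0 arrays that all missed the background call. Only 2 of the 3 arrays of d6 passed that call there. The reckoning used for *Cda* gave 1.79-fold for *Cmpk2* in 3c3. This too is no strict bound, since the d6 mean includes the undetected array.

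Of 12 genes that supply deoxynucleotides 9 were tested. In Cl19 6 were lower and in 3c3 7, with none higher in either, beside 30.3% and 28.6% lower among all probes. The median change was -1.35 and -1.34, and 3 genes in Cl19 and 2 in 3c3 did not pass. *Rrm2*, the regulated subunit of ribonucleotide reductase, fell by 4.38 in Cl19 (BH-adjusted p = 2.5e-07) and by 2.58 in 3c3 (BH-adjusted p = 1.7e-04). *Dut*, which turns dUTP into the substrate of TYMS, changed by -3.09 and -2.06. The mitochondrial thymidine kinase *Tk2*, chosen as a counterpart of *Tk1* after its values were seen, changed by -0.04 in Cl19 (BH-adjusted p = 0.82) and by -0.31 in 3c3 (BH-adjusted p = 0.048), against -1.91 and -2.03 for *Tk1*. In primary SMCs the mean of *Rrm2* stood at 10.40, beside 8.28 in Cl19 and 10.35 in 3c3 on d6.

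Genes that break pyrimidines down were few on these arrays. Of 10 genes 6 were tested, whereas *Dpyd* and *Dpys*, of the route that degrades uracil, were not tested, as they were well above background on 1 and on none of the 26 arrays. In Cl19 2 were higher and 2 lower, beside 22% and 30.3% of all probes. In 3c3 none was higher and 2 lower, beside 19.7% and 28.6%. *Nt5e*, counted as higher in Cl19, was well above background on no d0 array and on 2 of 3 of d6, and its rise has no bound. *Tymp*, the phosphorylase of thymidine, fell by 0.65 in Cl19 (BH-adjusted p = 0.010) and by 0.64 in 3c3 (BH-adjusted p = 0.013), which in both lines is far less than the fall of *Upp1*. The nucleotidase *Nt5c3b* fell by 0.73 in each line.

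Among the nucleoside transporters 6 of 7 were tested, with 2 lower and none higher in Cl19 and 2 lower and 1 higher in 3c3. The shares of all probes were 30.3% lower and 22% higher in Cl19, and 28.6% and 19.7% in 3c3. The equilibrative transporter *Slc29a2* fell by 3.32 in Cl19 (BH-adjusted p = 8.0e-07) and by 3.46 in 3c3 (BH-adjusted p = 7.9e-07), from 6.90 and 6.93 on d0 to 3.58 and 3.46 on d6, where it was well above background on all Cl19 arrays and on 2 of 3 in 3c3. Its fall was spread over the days, with means of 5.38 on d2 (5.17 without the array labelled Cl19 d2 replicate 1) and 3.79 on d4 in Cl19 and of 5.59 and 4.43 in 3c3.

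Purine salvage was set beside these lists. Of its 8 genes 7 were tested, and 2 were lower and none higher in Cl19 while 2 were lower and 1 was higher in 3c3, at a median change of -0.18 and 0.26, so that the share of lower genes was near that of all probes. The difference between the lists was not tested. *Ada*, which deaminates adenosine as CDA does cytidine, was the only gene of the list past the threshold with 1 sign in both lines, and it fell by 3.12 in Cl19 (BH-adjusted p = 5.3e-10) and by 0.97 in 3c3 (BH-adjusted p = 7.1e-04).

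**Figure D5:**
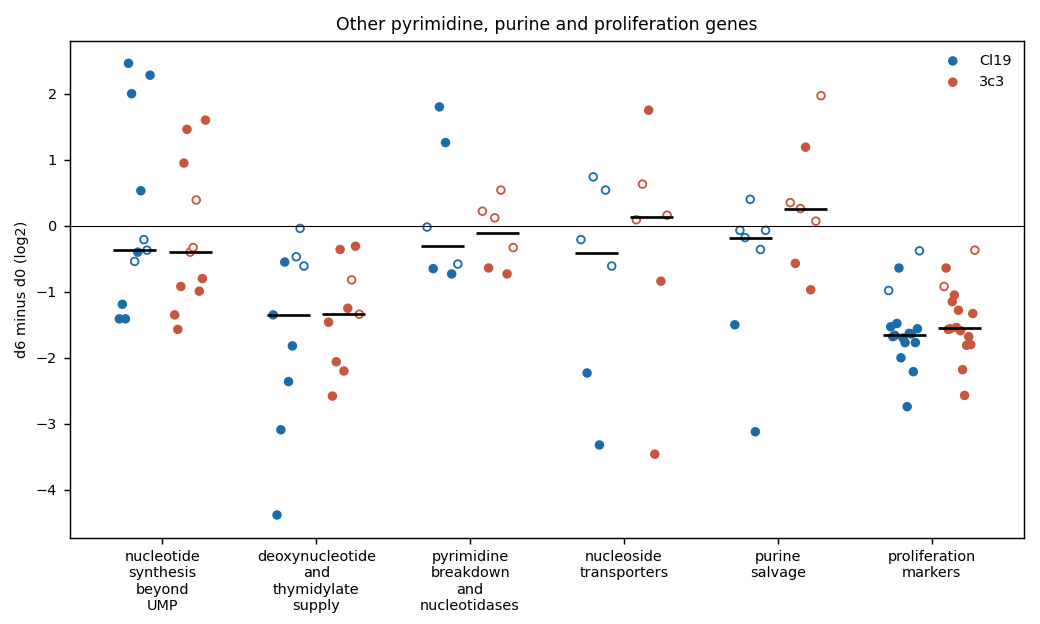
Change from d0 to d6 (log2, limma) of each tested gene of 5 nucleotide lists and of the proliferation markers, in Cl19 (blue) and 3c3 (red). Each point is a gene, filled where it passed an adjusted p of 0.05, and black bars are the medians of a list. Points of deoxynucleotide supply and proliferation lay below 0 in both lines, at medians of -1.35 and -1.65 in Cl19, whereas the other lists lay on both sides of 0. Values of dim probes are fitted values.

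The genes whose course was most like that of *Upp1* were found by Pearson's r over the 24 rMAPC arrays among 10674 other genes with a symbol, as a description in which arrays share days and slides. The most alike were *Phactr3* (0.967), *Rims2* (0.965), *Vit* (0.963), *Ssr1* (0.962) and *Blvra* (0.960). They differed in size, as *Phactr3* fell by 9.48 in Cl19 and by 6.62 in 3c3 and *Ssr1* by 1.60 and 0.83. *Phactr3* and *Vit* were well above background on neither primary SMC array, where *Upp1* was bright. The most opposite were *Abcg1* (-0.975), *Map1b* (-0.968) and *Prss23* (-0.966), with rises of 6.28, 8.95 and 10.35 in Cl19 and of 3.41, 5.71 and 8.46 in 3c3. Among the members, *Cda* had an r of -0.86 with *Upp1*, *Uck1* 0.71, and *Umps* and *Tk1* 0.69 each.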

How the data were processed

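RNA of 26 samples was hybridized to 1-colour Agilent Whole Rat Genome arrays, and per the file headers the scans were read with Agilent Feature Extraction 10.1.1.1. The authors deposited background-subtracted intensity values of 45018 features per array and a log2 table of them without normalization between arrays, although the methods name quantile normalization. Here the log2 intensity of 43379 gene features was quantile normalized, flagged features were dropped and features of a probe were averaged to 41012 probes, with Python 3.11.15 and pandas 2.3.3. Groups came from the labels. Tests used limma 3.58.1 in R 4.3.3 (lmFit and eBayes, 9 groups, no covariate), with Benjamini-Hochberg adjustment over 24442 probes, and were tested on simulated data. For arrays no count gives the depth, and precision is limited by their number (3 per group, 2 for primary SMCs). No feature was saturated.

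The members, lists and markers were chosen with earlier results of these data known. All members were named, and of each list up to 3 genes with the largest rise and fall among those past the threshold with 1 sign in both lines, except 1 gene that is not reported here. Same-numbered arrays of a line lay on 1 slide per the file headers. Their deviations from the group means correlated over 0.1 in all 6 d0 and d6 pairs (lowest 0.11), and in 16 of 18 pairs of all days in Cl19 and 18 of 18 in 3c3, so that the replicate block was fitted as an alternative. Other alternatives were 75th percentile scaling, normexp background correction with an offset of 50, the deposited log2 values, no filter, a floor for dim probes, a fit per line, the mean of all probes of a gene, trended and robust variance, the methods' t-test, another noise term of the area method, and leaving out each array or the slide of 3c3 replicate 3.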

Additional observations from a re-analysis of the deposited data

Results flagged for a closer look

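The change from d0 to d6 differed between the lines for 5 of the 39 genes tested in the nucleotide lists (12.8%, beside 17.4% of all probes), each by limma's interaction term over all tested probes and given as the Cl19 change minus the 3c3 change. *Ada* differed by -2.14 (adjusted p = 3.8e-05), with falls of 3.12 and 0.97. *Hprt1*, the purine salvage enzyme often used as a reference gene, differed by -1.85 (adjusted p = 1.5e-05), with -1.50 in Cl19 (adjusted p = 3.4e-07) and 0.35 in 3c3 (adjusted p = 0.085). The concentrative nucleoside transporter *Slc28a2* differed by -2.86 (adjusted p = 1.1e-04), with -2.23 in Cl19 (adjusted p = 5.6e-06) and 0.63 in 3c3 (adjusted p = 0.10), from d0 means of 5.34 and 3.12. The equilibrative transporter *Slc29a3* differed by 1.38 (adjusted p = 0.0095), with 0.54 in Cl19 (adjusted p = 0.081) and -0.84 in 3c3 (adjusted p = 0.0092). The ectonucleotidase *Nt5e* differed by 1.68 (adjusted p = 0.028), but it was well above background on no d0 array of either line, on 2 of 3 d6 arrays in Cl19 and on none in 3c3.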

How the results depend on the processing

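*Upp1* kept its direction in both lines under every alternative run, with -6.62 in Cl19 under normexp and -7.59 to -6.90 and -4.27 to -3.82 over the arrays left out in turn. *Uck2* in Cl19, near 0, turned to -0.32 with the 75th percentile and ran from -0.15, without d6 replicate 3, to 0.19 over the arrays left out. Counts below are of the 7 tested members other than *Upp1*. By the methods' t-test after Benjamini-Hochberg adjustment 1 member was lower on d6 in Cl19 and 0 in 3c3, where 4444 of all probes were lower, and unadjusted 3 members were lower in 3c3. By limma 5 were lower in 3c3, 3 without replicate 3 on all days and 3 to 5 over the arrays left out, with 3 without d6 replicate 2. Under normexp 0 were higher on d6 in 3c3. From d0 to d2 in Cl19, 0 were called under normexp and with the floor. From d2 to d4 in Cl19, 1 to 4 were called over the arrays left out. From d4 to d6 in Cl19, 1 was called under normexp and with trended variance, 2 with the replicate block, and 0 to 2 over the arrays left out. From d2 to d4 in 3c3, 1 was called in the deposited values and in the fit per line, 0 without replicate 3 on all days, and 1 to 4 over the arrays left out. From d4 to d6 in 3c3, 3 were called with the replicate block and 1 to 2 over the arrays left out. Against primary SMCs the deposited values gave 0 higher and 6 lower in both lines, and 2 were higher against 3c3 with the 75th percentile and 1 to 2 over the arrays left out. Between the lines 1 member differed with the 75th percentile and in the deposited values, and 0 to 1 over the arrays left out. The area method with its other noise term took 3825 probes in Cl19 and 1906 in 3c3, with 2 members (*Upp1* and *Cda*) in 3c3. The cause of these moves was not tested. Beyond the block results given for *Umps*, *Dhodh* and *Tyms*, the replicate block changed the call of *Uck2* from d4 to d6 in 3c3 (-0.81, adjusted p = 0.026). Signal over background limits *Upp2*, *Dck* and the early days of *Cda*.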
